A study of Mus musculus with 6 samples.

Results

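The genes described here encode voltage-gated sodium channels and their close relative, the sodium leak channel. They were taken by name: 5 pore-forming alpha subunits (Scn1a, Scn2a, Scn3a, Scn8a and Scn9a), 3 auxiliary beta subunits (Scn2b, Scn3b and Scn4b) and Nalcn. Each of these 9 genes had 1 row among the 35148 genes of the deposited table, and all 9 had enough reads to be tested.

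A sodium channel alpha subunit forms the pore that opens on depolarisation and carries the rising phase of the action potential. Beta subunits are small membrane proteins with an immunoglobulin-like domain that alter the gating of the alpha subunit, its delivery to the membrane and its contacts with other cells. NALCN opens without the steep voltage dependence of that family and carries a background sodium current that helps to set the resting potential. In hypothalamic neurons these currents set how readily synaptic input is turned into spikes.

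The RNA came from mouse paraventricular hypothalamus (PVH), whose neurons release oxytocin, vasopressin and releasing hormones and act on feeding and the stress axis. All mice were Ruvbl2fl/fl, that is, both copies of Ruvbl2 carried loxP sites that Cre recombinase can join. In the first group of 3 libraries (AAV2-Cre-GFP, called Cre-labelled here) an adeno-associated virus of serotype AAV2 carrying Cre and GFP had been injected into the PVH, and in the second group of 3 (AAV2-GFP, called GFP-labelled here) the same kind of virus carried GFP without Cre. Tissue was taken 8 weeks after infection in both groups, and the series states that it was made to examine RUVBL2, an ATPase of chromatin and chaperone complexes, in synaptic plasticity. The labels give no age or sex, no promoter of the viral genes and no statement that libraries came from separate animals. The p-values therefore measure the spread between these samples, which may be technical. The tissue was not sorted, so it holds transduced and other neurons, glia and vessels, and in such bulk RNA fewer cells of a type and less RNA per cell cannot be told apart.

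Total counts ran from 41890769 to 54702785 per library. Ruvbl2 was not lower in the Cre-labelled libraries, with 9.53, 9.10 and 9.51 FPKM in Cre-labelled libraries 1 to 3 and 9.90, 7.36 and 8.72 FPKM in GFP-labelled libraries 1 to 3 (fragments scaled by gene length and library total; two-sided exact permutation p = 0.5). Its log2 difference was 0.08 ± 0.11 (SE; edgeR adjusted p = 0.773), so the transcript does not check the labels, and every direction below is between libraries as labelled. Markers of the PVH (Oxt, Avp, Crh, Trh, Sim1, Otp and Pou3f2) were detected in every library. They summed to 261 to 569 CPM (counts scaled to an equal library total) in Cre-labelled and 329 to 790 CPM in GFP-labelled libraries. All 7 were lower in the Cre-labelled libraries in edgeR, with a median log2 difference of -0.70, beside -0.0058 for all genes tested. The medians were -0.41 for 3 glutamatergic and -0.32 for 8 thalamic markers, all lower, and -0.02 for 4 GABAergic markers, 2 of them lower. edgeR called 0 of these genes at an adjusted p of 0.05. Transcripts of other organs stood out in 4 libraries: 8 kidney genes together had 448 CPM in Cre-labelled library 2 and 485 CPM in Cre-labelled library 3, where 7 skeletal muscle genes had 184 CPM, and 6 testis genes had 354 CPM in GFP-labelled library 1. At a lower level, the pituitary hormone genes Gh and Prl together had 29.9 CPM in GFP-labelled library 2, against 0 to 3.18 CPM in the other 5 libraries. A list of 22 pan-neuronal markers without a sodium channel gene summed to 10400 to 11210 CPM in Cre-labelled and 12990 to 13150 CPM in GFP-labelled libraries, without overlap. Ependymal markers (137 to 191 against 101 to 112 CPM) were higher in every Cre-labelled library than in any GFP-labelled one. The same held for a list of ribosomal and small nuclear RNA models plus Lars2, a gene that moves with them (11030 to 23060 against 5252 to 5828 CPM).

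Scn2a, Scn8a and Scn2b were the 3 members whose FPKM did not overlap between the groups, so the bases ahead of their starts are shown. The sequences are from RefSeq on build GRCm38.p6, plus strand, 5′ to 3′, with each CG pair in capitals. They end before the first annotated exon base that follows. Scn2a is read from chr2:65620519-65620768, Scn8a from chr15:100870395-100870644 and Scn2b from chr9:45117626-45117781.
Scn2a: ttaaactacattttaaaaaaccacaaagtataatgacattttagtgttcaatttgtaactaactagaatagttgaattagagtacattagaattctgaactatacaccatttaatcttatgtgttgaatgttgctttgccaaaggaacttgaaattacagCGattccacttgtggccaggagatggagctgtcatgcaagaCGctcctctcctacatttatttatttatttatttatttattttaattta
Scn8a: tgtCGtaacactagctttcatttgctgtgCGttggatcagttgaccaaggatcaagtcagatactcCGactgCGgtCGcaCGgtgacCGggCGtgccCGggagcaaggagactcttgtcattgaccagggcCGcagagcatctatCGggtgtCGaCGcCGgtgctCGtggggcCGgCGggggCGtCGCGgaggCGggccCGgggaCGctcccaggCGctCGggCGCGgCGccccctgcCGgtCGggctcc
Scn2b: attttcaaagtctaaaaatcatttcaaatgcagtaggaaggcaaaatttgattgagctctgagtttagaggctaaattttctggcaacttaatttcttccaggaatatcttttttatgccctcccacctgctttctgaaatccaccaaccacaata
The Scn8a window lies in an intron of transcripts that begin further upstream. Over the full 250 bases ahead of the RefSeq start, the Scn8a promoter held 68% G and C and 30 CG pairs, against 29.6% and 2 pairs for Scn2a and 38.4% and 1 pair for Scn2b. The median over 32841 promoters was 52.4% and 6 pairs. The Scn8a promoter was thus rich in CG pairs and those of Scn2a and Scn2b were poor in them. Windows were found for 7 members, and the other 4 ranged from 45.2% (Nalcn) to 66% (Scn4b). Searched on both strands, the GC box GGGCGG (in 32.7% of all promoters), TATAAA (12.4%), TGACGTCA (1.55%) and CAGCACC (5.73%) gave a single match in these 7 windows, CAGCACC on the opposite strand in Nalcn.

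All 5 alpha subunits had lower mean levels in the Cre-labelled libraries under the usual library scaling (TMM). The log2 differences ran from -0.27 for Scn2a to -0.13 for Scn3a, and none passed edgeR's quasi-likelihood test at an adjusted p of 0.05. When libraries were scaled to the pan-neuronal markers instead, all 5 differences were above 0 (0.05 to 0.19).

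Scn2a, the alpha subunit of excitatory neurons and unmyelinated axons, had the highest alpha level. It measured 16.9, 19.5 and 17.5 FPKM in Cre-labelled libraries 1 to 3, against 20.5, 21.9 and 20.7 FPKM in GFP-labelled libraries 1 to 3. Every Cre-labelled value was below every GFP-labelled value, and Cre-labelled library 1 was the lowest. The means were 18.0 ± 1.35 and 21.1 ± 0.76 FPKM (SD, n = 3 each), with a log2 difference of -0.27 (95% interval -0.43 to -0.10; edgeR adjusted p = 0.143).

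Scn8a is the main alpha subunit of the mature axon initial segment and of nodes of Ranvier. It measured 9.08, 9.68 and 9.36 FPKM in Cre-labelled libraries, against 9.74, 10.9 and 11.2 FPKM in GFP-labelled libraries. The groups did not overlap, but GFP-labelled library 1 lay close to Cre-labelled library 2. For Scn8a the log2 difference came to -0.22 (95% interval -0.38 to -0.05; edgeR adjusted p = 0.186).

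Scn1a, the alpha subunit best known in fast-spiking inhibitory neurons, varied most within the Cre-labelled group among the alpha subunits. Its levels were 10.8, 9.56 and 8.18 FPKM in Cre-labelled libraries 1 to 3, against 10.5, 11.2 and 11.1 FPKM in GFP-labelled libraries 1 to 3. Cre-labelled library 1 was above GFP-labelled library 1, while library 3 was below all others. The coefficient of variation was 14.0% in the Cre-labelled and 3.35% in the GFP-labelled group. The log2 difference of -0.24 (95% interval -0.45 to -0.02; edgeR adjusted p = 0.256) was -0.12 without Cre-labelled library 3.

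Scn3a is the alpha subunit most abundant in embryonic brain. It had 5.38, 4.91 and 4.92 FPKM in Cre-labelled libraries, against 5.05, 5.79 and 5.36 FPKM in GFP-labelled libraries. Cre-labelled library 1 was above the GFP-labelled libraries 1 and 3, so the groups overlapped. Its log2 difference was -0.13 (95% interval -0.29 to 0.03; edgeR adjusted p = 0.379), and -0.08 without GFP-labelled library 2.

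Scn9a amplifies small depolarisations in sensory neurons and in mouse hypothalamic AgRP neurons. It was the lowest alpha subunit, with 2.67, 2.19 and 2.54 FPKM in Cre-labelled libraries, against 2.42, 2.99 and 2.96 FPKM in GFP-labelled libraries. GFP-labelled library 1 fell among the Cre-labelled values. For Scn9a the log2 difference was -0.22 (95% interval -0.46 to 0.03; edgeR adjusted p = 0.349), and -0.13 without Cre-labelled library 2. Gm13629, a transcript antisense to Scn9a, had 134 to 221 counts per library, against 1472 to 2157 counts for Scn9a, and it is not stated whether strand was used in counting.

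None of the beta subunits passed edgeR's adjusted threshold, and differences between them were not tested. Scn2b had the lowest log2 difference of all 9 members, Scn3b overlapped between the groups, and Scn4b had the only mean above that of the GFP-labelled libraries under TMM. Scaled to the pan-neuronal markers, all 3 were above 0 (0.0056 for Scn2b, 0.09 for Scn3b and 0.47 for Scn4b).

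Scn2b encodes a beta subunit that is linked to the alpha subunit by a disulfide bond and promotes its delivery to the surface. It measured 53.6, 58.0 and 58.3 FPKM in Cre-labelled libraries 1 to 3, against 68.4, 66.0 and 70.4 FPKM in GFP-labelled libraries 1 to 3. The gap between the groups was wider than the range within either of them. The means were 56.6 ± 2.62 and 68.3 ± 2.17 FPKM (SD, n = 3 each), a ratio of 0.830. The log2 difference was -0.31 (95% interval -0.45 to -0.16; edgeR adjusted p = 0.0904), which placed Scn2b at rank 266 of 20865 genes by edgeR's p.

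Scn3b encodes a beta subunit that binds the alpha subunit without a covalent bond. It had 24.3, 30.9 and 27.8 FPKM in Cre-labelled libraries, against 31.2, 32.4 and 30.4 FPKM in GFP-labelled libraries. Cre-labelled library 1 was the lowest and library 2 lay within the GFP-labelled range. The log2 difference was -0.21 (95% interval -0.43 to 0.00355; edgeR adjusted p = 0.298), and -0.11 without Cre-labelled library 1.

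Scn4b encodes the beta subunit whose tail can block open channels and give rise to resurgent current, and it is also expressed in muscle. It was the scarcest member, with 1.17, 1.20 and 1.63 FPKM in Cre-labelled libraries (284, 315 and 517 counts), against 1.16, 1.25 and 1.10 FPKM in GFP-labelled libraries (294, 301 and 312 counts). Cre-labelled library 3 stood apart and the other 5 libraries lay within 1.10 to 1.25 FPKM. That library also held the 184 CPM of skeletal muscle genes, against 4.73 to 13.8 CPM in the others of its group, and the highest count of Scn4a, the alpha subunit of skeletal muscle (71 counts, against 0 to 29 in the other 5 libraries). The part of muscle RNA in the Scn4b value was not tested. The log2 difference was 0.15 (95% interval -0.27 to 0.58; edgeR adjusted p = 0.721), -0.0013 without Cre-labelled library 3 and 0.26 without Cre-labelled library 1.

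Nalcn measured 10.8, 10.04 and 9.39 FPKM in Cre-labelled libraries 1 to 3, against 10.4, 11.6 and 10.6 FPKM in GFP-labelled libraries 1 to 3. Cre-labelled library 1 was above 2 of the GFP-labelled libraries, so the groups overlapped. The log2 difference was -0.15 (95% interval -0.30 to 0.00269; edgeR adjusted p = 0.298) under TMM, -0.09 without Cre-labelled library 3, and 0.17 with the libraries scaled to the pan-neuronal markers.

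**Figure D1:**
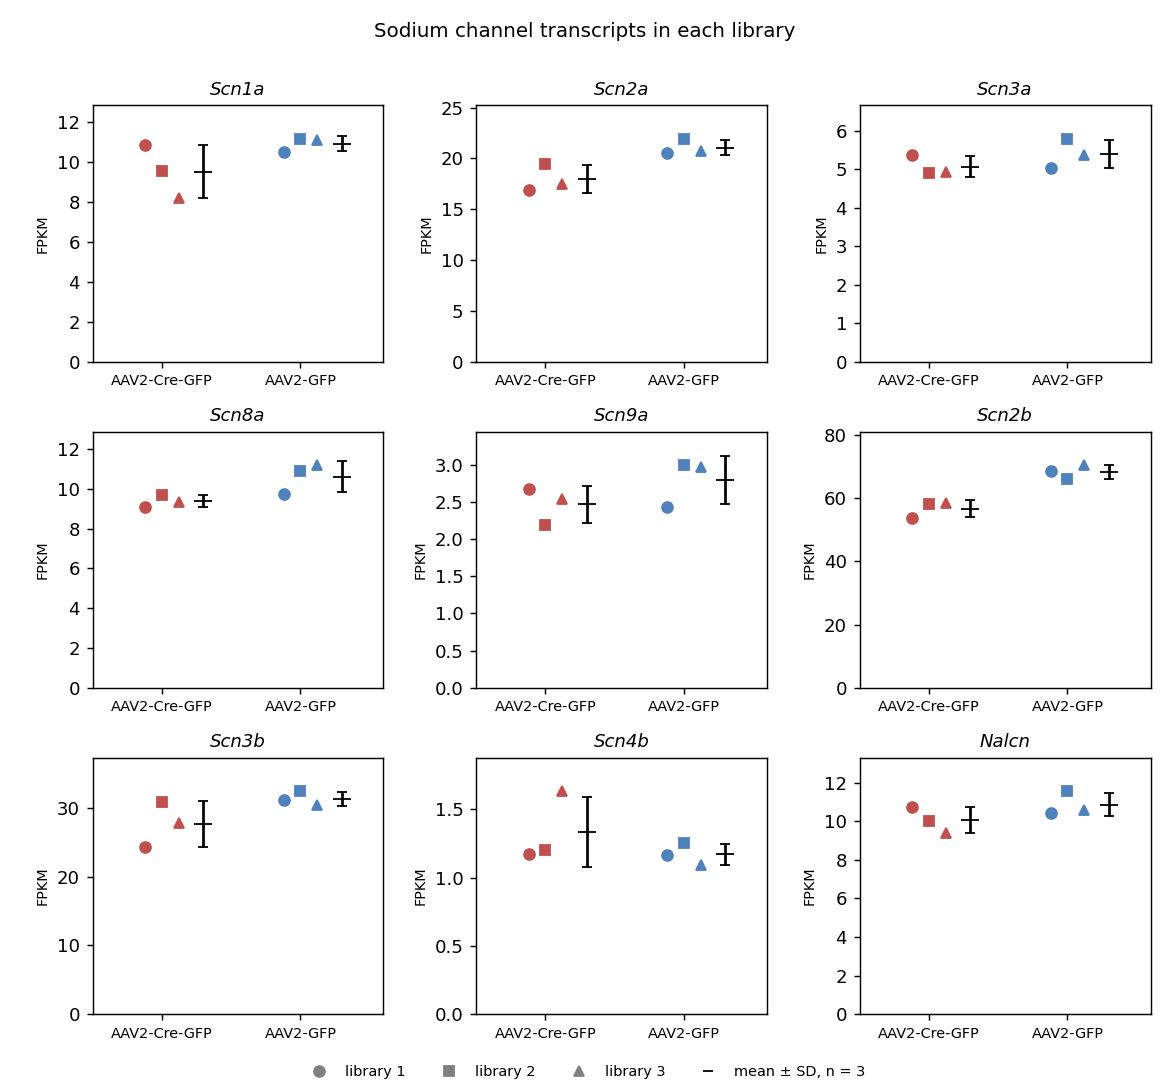
FPKM of each member (vertical axes, starting at 0) in the 3 AAV2-Cre-GFP libraries (red, left) and the 3 AAV2-GFP libraries (blue, right), with mean ± SD in black. The red and blue points are separate for Scn2a, Scn8a and Scn2b and overlap for the other 6 genes.

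Counted over the 9 members, 8 had a lower and 1 had a higher mean log2 value in the Cre-labelled libraries under TMM, and all 9 were higher when scaled to the pan-neuronal markers. edgeR called 0 of the 9, against 0.00959% of the 20865 genes tested (2 genes). At an unadjusted p of 0.05, edgeR had 4 members lower (Scn1a, Scn2a, Scn8a and Scn2b) and 0 higher, beside 9.11% of all genes lower at that level. The FPKM of 3 members was lower in every Cre-labelled than in every GFP-labelled library, which was so for 8.8% of tested genes. A two-sided exact permutation test of 3 against 3 libraries cannot give p below 0.1, which these 3 genes reached. DESeq2, fitted to the same counts, called the same 3 lower (Scn2b with adjusted p = 0.000143, Scn2a with 0.00684 and Scn8a with 0.0476), and it called 4.91% of its 16455 genes lower.

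The median log2 difference of the members was -0.22, beside -0.0058 for all genes tested and -0.22 for the 22 pan-neuronal markers. All 22 markers were lower in the mean, and 0 of them passed edgeR's adjusted p of 0.05 (15 had unadjusted p below 0.05). Scaling the libraries to these markers moved the median of all genes to 0.31. Relative to that median 8 members were lower, by -0.12 (Scn3a) to -0.30 (Scn2b), with Scn4b at 0.16. Library factors move all genes nearly alike, so these relative values were not a separate result. Under TMM they were -0.12 (Scn3a), -0.30 (Scn2b) and 0.16 (Scn4b). The summed FPKM of the alpha subunits was 44.4 ± 1.73 in Cre-labelled and 50.8 ± 2.33 in GFP-labelled libraries (SD, n = 3 each; two-sided exact permutation p = 0.1, the smallest possible, adjusted p = 0.5). As a percent of the summed FPKM of the pan-neuronal markers, the alpha subunits came to 2.21%, 2.04% and 1.93% in Cre-labelled libraries 1 to 3, against 1.88%, 2.05% and 2.00% in GFP-labelled libraries 1 to 3 (two-sided exact permutation p = 0.5, adjusted p = 0.938 over 15 such tests). The beta subunits, at 85.6 ± 5.80 against 101 ± 1.09 FPKM (exact permutation p = 0.1, adjusted p = 0.5), came to 3.89%, 4.02% and 3.98% against 3.93%, 3.86% and 3.96% (exact permutation p = 0.4, adjusted p = 0.938). Summed FPKM did not overlap between the groups and its ratio to neuronal markers did, and none of these 4 comparisons passed after adjustment.

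Without the 3 libraries that held kidney, muscle or testis transcripts, Cre-labelled library 1 was compared with GFP-labelled library 2, which held the pituitary transcripts, and GFP-labelled library 3, and its spread had to be assumed equal to that of the GFP-labelled pair. That edgeR fit called 4 members lower (Scn2a, Scn8a, Scn2b and Scn3b, adjusted p = 0.00588 to 0.0169), beside 3.57% of 22015 genes. Its log2 differences were -0.39 for Scn2a, -0.34 for Scn8a, -0.40 for Scn2b and -0.42 for Scn3b, whereas Scn1a was at -0.09, Nalcn at -0.09 and Scn4b at -0.05. The median of the members was -0.21, against -0.22 in the fit of all 6 libraries. The median of the pan-neuronal markers was -0.32, against -0.22 in the fit of all 6 libraries. These values rest on a single Cre-labelled library.

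**Figure D2:**
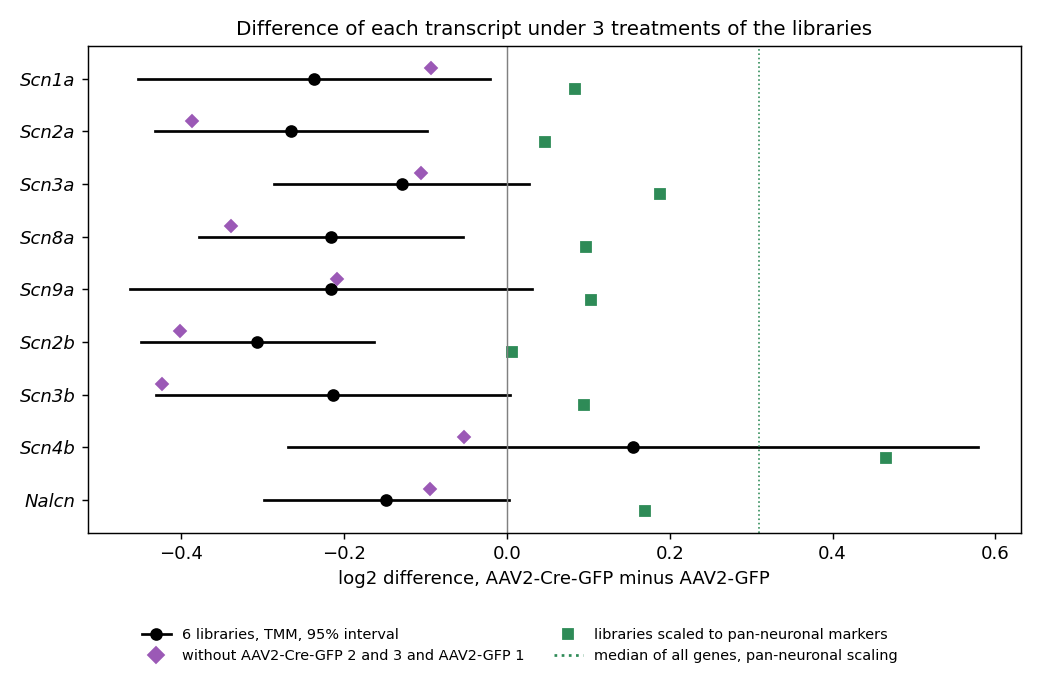
Log2 difference, AAV2-Cre-GFP minus AAV2-GFP (horizontal axis), of each member. Black points with 95% intervals are the edgeR fit of all 6 libraries, purple diamonds leave out AAV2-Cre-GFP libraries 2 and 3 and AAV2-GFP library 1, and green squares scale libraries to pan-neuronal markers, with the all-gene median of that scaling dotted at 0.31. Under TMM 8 black points lie below 0, while all green squares lie above 0 and 8 of them left of the dotted line.

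The Cre-labelled libraries did not share one pattern over the members. In Cre-labelled library 1, Scn2a, Scn2b and Scn3b stood at 80.4%, 78.5% and 77.6% of the GFP-labelled mean. In the same library Scn1a, Scn3a and Nalcn stood at 99.2%, 99.6% and 99.1%. Cre-labelled library 3 had the reverse order for 2 of these, with Scn1a at 74.9% and Scn3b at 88.8%. Cre-labelled library 2 had its lowest value for Scn9a (78.4%) and its highest for Scn4b (103%), followed by Scn3b (98.7%). The GFP-labelled libraries lay between 86.8% and 107% over all members.

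The ratio of Scn2a to Scn1a FPKM was 1.56 in Cre-labelled library 1, against 2.04 and 2.14 in Cre-labelled libraries 2 and 3 and 1.87 to 1.97 in the GFP-labelled libraries. Cre-labelled library 1 also had the lowest summed glutamatergic markers (129 CPM, against 173 and 233 CPM in the others of its group and 202 to 262 CPM in the GFP-labelled group). Its summed GABAergic markers were the highest (2070 CPM, against 1693 and 1842 CPM in the others of its group and 1709 to 1911 CPM in the GFP-labelled group). Markers of the neighbouring thalamus were lowest there too (408 CPM, against 531 and 656 CPM in the others of its group and 559 to 813 CPM in the GFP-labelled group). The list of ribosomal and small nuclear RNA models plus Lars2 was highest in Cre-labelled library 1, at 23060 CPM. It had 17960 and 11030 CPM in the others of that group and 5252 to 5828 CPM in the GFP-labelled group. The part of these neuron classes, of neighbouring tissue and of these RNA models in the ratio was not tested.

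**Figure D3:**
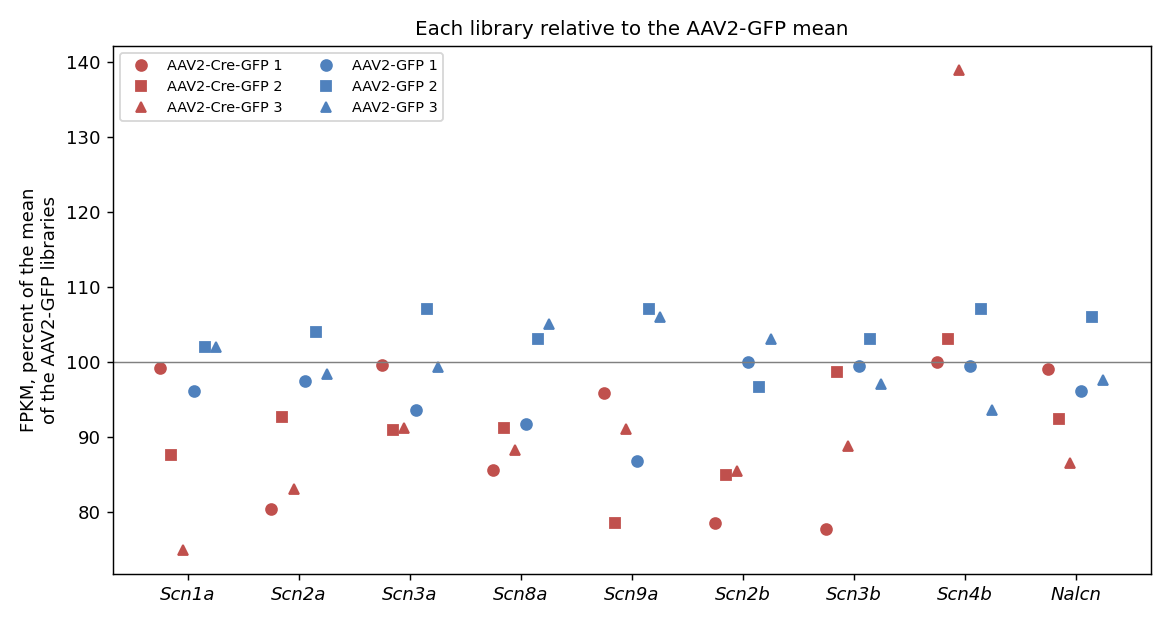
FPKM of each member in each library as a percent of the mean of the 3 AAV2-GFP libraries (vertical axis), with AAV2-Cre-GFP libraries in red and AAV2-GFP libraries in blue. Library 1 of AAV2-Cre-GFP (red circles) is near 78% to 80% for Scn2a, Scn2b and Scn3b and near 99% for Scn1a, Scn3a and Nalcn, and library 3 (red triangle) is at 139% for Scn4b.

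In FPKM, which is per length, the members fell in nearly the same order in both groups. Scn2b was the highest, followed by Scn3b and Scn2a, with ranges that did not touch in either group. Nalcn, Scn1a and Scn8a came next with overlapping ranges, at means of 10.1, 9.52 and 9.38 FPKM in Cre-labelled and 10.9, 10.9 and 10.6 FPKM in GFP-labelled libraries. Scn3a (5.07 and 5.40 FPKM), Scn9a (2.47 and 2.79 FPKM) and Scn4b (1.34 and 1.17 FPKM) followed, each separate from its neighbours in both groups. These orders depend on the gene lengths behind the deposited FPKM, for which counts and FPKM give relative values of 5.39 kb for Scn2b and 18.2 kb for Scn8a.

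Expressed as shares of summed alpha FPKM within a library, 4 of the 5 alpha subunits differed between the group means by less than the SD within the Cre-labelled group, and the shares of all 5 overlapped between groups. Scn2a made up 40.5 ± 2.49% in Cre-labelled and 41.5 ± 1.10% in GFP-labelled libraries (SD, n = 3 each), and Scn1a 21.4 ± 2.49% and 21.5 ± 0.333%. Scn8a contributed 21.1 ± 0.910% in Cre-labelled and 20.9 ± 0.827% in GFP-labelled libraries, and Scn9a 5.57 ± 0.687% and 5.49 ± 0.404%. Scn3a, at 11.4 ± 0.654% and 10.6 ± 0.30%, differed by 0.798 percentage points, more than either SD, and had the smallest p of the 5 (two-sided exact permutation p = 0.2, adjusted p = 0.75 over 15 tests). These shares do not depend on how libraries are scaled.

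**Figure D4:**
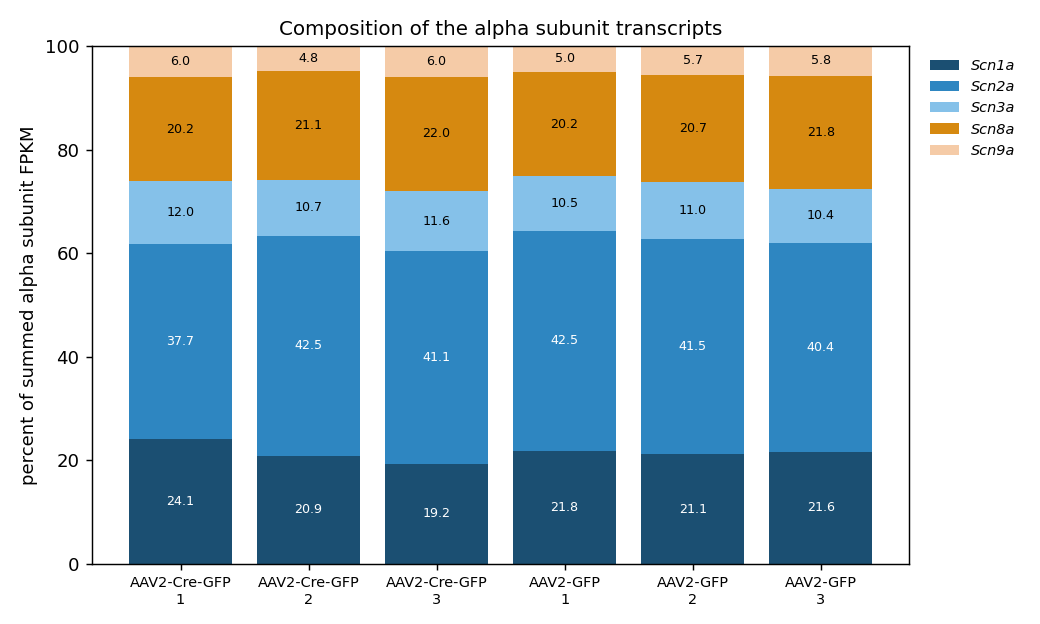
Share of each alpha subunit in the summed alpha subunit FPKM (vertical axis, percent) of each library, AAV2-Cre-GFP on the left and AAV2-GFP on the right. Scn2a takes the widest band in every library, and Scn1a is 24.1% in AAV2-Cre-GFP library 1 and 19.2% in library 3.

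The positions of the members were set beside their log2 differences, and differences between neighbours were not tested. Scn3a (chr2:65457118-65567627), Scn2a (chr2:65620771-65767447), Scn1a (chr2:66270778-66440814) and Scn9a (chr2:66480080-66634952; GRCm38) lie in a cluster, with 53.1 kb between Scn3a and Scn2a and 39.3 kb between Scn1a and Scn9a. The log2 differences of these clustered genes ran from -0.27 (Scn2a) to -0.13 (Scn3a) under TMM. Scn2b (chr9:45117782-45130070) and Scn4b (chr9:45138395-45154152) are 8.32 kb apart and had log2 differences of -0.31 and 0.15 under TMM. Their 95% intervals overlapped (-0.45 to -0.16 and -0.27 to 0.58), and Scn4b was at -0.0013 without Cre-labelled library 3. Scn3b lies at chr9:40269217-40291618, Scn8a at chr15:100869858-101045938 and Nalcn at chr14:123276634-123627144. Among the 31-base words of the clustered genes' transcripts, 6.23% to 9.57% also occur in other genes, mainly each other, against 0.528% for Scn8a, so reads from those stretches could have been divided between them.

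Of the sodium channel genes that are not members, 5 were tested and 0 had an unadjusted edgeR p below 0.05, with a median log2 difference of 0.06 under TMM and 0.38 with pan-neuronal scaling. Under TMM 1 of the 5 was lower and 4 were higher, and the median was that of a gene with only 23 to 43 counts per library. Scn4a, at 0 to 71 counts per library, had an edgeR adjusted p of 0.423.

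Of the NALCN complex, 3 genes were tested and edgeR called 0. Unc80, which encodes a large scaffold subunit that the channel needs for its current, measured 17.8, 16.9 and 13.9 FPKM in Cre-labelled libraries, against 19.4, 20.99 and 17.8 FPKM in GFP-labelled libraries. GFP-labelled library 3 lay just below Cre-labelled library 1, so the groups overlapped. Its log2 difference was -0.29 ± 0.098 (SE; edgeR adjusted p = 0.193; DESeq2 adjusted p = 0.0226). Fam155a, which encodes a subunit that helps the channel to reach the membrane, had means of 9.63 ± 0.33 and 9.66 ± 0.71 FPKM (SD, n = 3 each) and a log2 difference of -0.04 (edgeR adjusted p = 0.803).

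The fibroblast growth factor homologous factors (Fgf11 to Fgf14) bind the intracellular tail of alpha subunits and shift their inactivation. All 4 had lower means in the Cre-labelled libraries under TMM, with a median of -0.30 against -0.0058 for all genes, and 0 passed edgeR's adjusted threshold (2 had unadjusted p below 0.05, both lower, beside 9.11% of all genes). Scaled to the pan-neuronal markers, their median was 0.01. Fgf12 measured 15.0, 16.8 and 15.0 FPKM in Cre-labelled libraries, against 21.4, 18.3 and 17.5 FPKM in GFP-labelled libraries, a log2 difference of -0.32 ± 0.090 (SE; edgeR adjusted p = 0.147; DESeq2 adjusted p = 0.0144). Fgf14 measured 5.61, 6.10 and 6.12 FPKM against 6.77, 7.10 and 7.21 FPKM, with an edgeR adjusted p of 0.148. Neither gene's groups overlapped, as for 8.8% of tested genes.

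The scaffold and adhesion genes of the axon initial segment and node, where sodium channels are clustered, had a median of -0.18 under TMM, and 11 of 12 had lower means in the Cre-labelled libraries. With pan-neuronal scaling their median was 0.14. edgeR called 0 of the 12 at the adjusted threshold, and 6 had an unadjusted p below 0.05, all lower, beside 9.11% of all genes. Cntnap1, which encodes a protein of the paranodal axon-glia junction, measured 30.0, 31.6 and 31.2 FPKM in Cre-labelled libraries, against 36.1, 37.6 and 40.1 FPKM in GFP-labelled libraries. Its log2 difference was -0.33 ± 0.062 (SE; edgeR adjusted p = 0.0793). Nrcam, an adhesion molecule of the initial segment and node, measured 16.7, 16.6 and 16.4 FPKM against 19.6, 19.4 and 18.4 FPKM, with an edgeR adjusted p of 0.0908. Both had Cre-labelled values that lay close together and below all GFP-labelled values. The groups were separate in that direction for 8.8% of tested genes and for 13 of the 22 pan-neuronal markers.

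Among 10 regulators of sodium channel trafficking and turnover, the median was -0.10 under TMM and 0.21 with pan-neuronal scaling. edgeR called 0, and 2 had an unadjusted p below 0.05 and were lower (9.11% of all genes), the smallest p of all partner genes. One of the 10, Snap25, is also on the pan-neuronal list. Map1b, which encodes a microtubule-associated protein that binds the alpha subunit encoded by Scn8a, measured 64.6, 74.4 and 74.2 FPKM in Cre-labelled libraries, against 103, 101 and 96.4 FPKM in GFP-labelled libraries. The log2 difference was -0.53 ± 0.075 (SE; edgeR adjusted p = 0.0705), and without Cre-labelled library 1 it passed the threshold (adjusted p = 0.0199). Dpysl2 (CRMP2), a cytosolic protein that affects surface delivery of the Scn9a channel in sensory neurons, measured 43.5, 41.8 and 42.3 FPKM against 53.5, 52.6 and 55.9 FPKM. Its log2 difference was -0.38 ± 0.050 (SE; edgeR adjusted p = 0.0694), with an adjusted p of 0.0328 without Cre-labelled library 1. That fit called 296 genes in all, and the fits without any other single library called 1 to 4 genes and 0 partner genes. Over all 34 partner genes tested, 26 had lower means under TMM, with a median of -0.12, and DESeq2 called 8 lower (beside 4.91% of all genes) and 0 higher. With pan-neuronal scaling edgeR called 10 partner genes higher and 1 lower, beside 5795 higher and 28 lower of all 20865 genes tested.

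**Figure D5:**
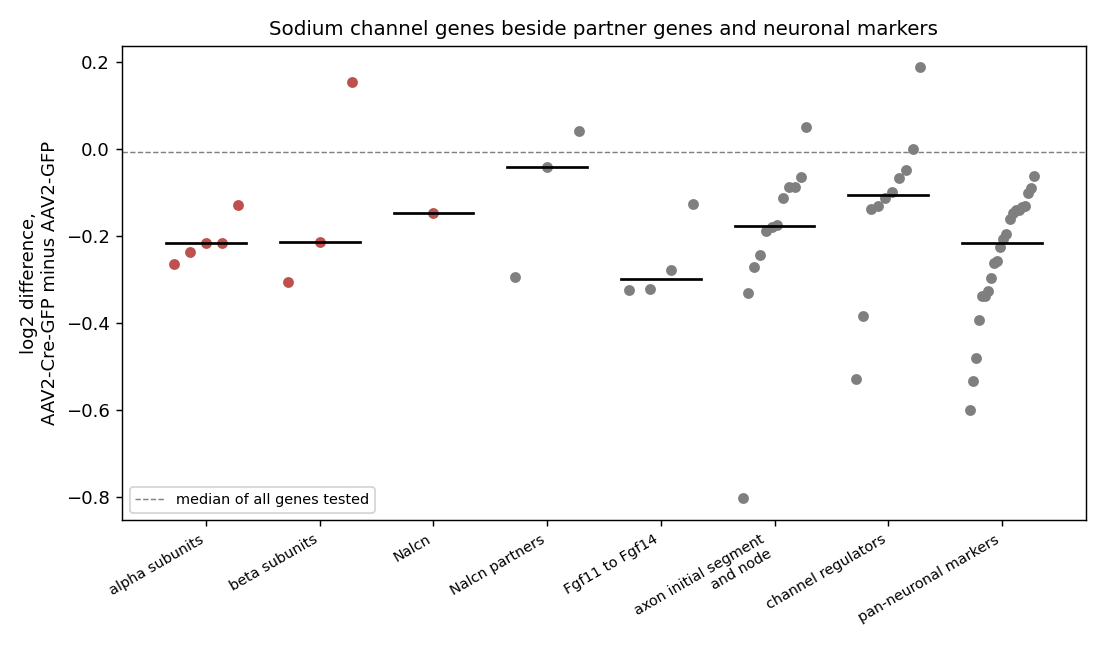
Log2 difference, AAV2-Cre-GFP minus AAV2-GFP under TMM (vertical axis), of each tested member (red) and of each gene of 5 comparison lists (grey), with list medians as black bars and the median of all genes tested as a dashed line. The medians of the alpha and beta subunits and of the pan-neuronal markers lie near -0.22. With libraries scaled to those markers the 3 medians are 0.10, 0.09 and 0.10, below an all-gene median of 0.31.

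The profile of the members was also set beside that of 14271 other tested genes that averaged 1 FPKM or more. Centred on the mean of the 6 libraries, the mean log2 CPM of the members was -0.12, -0.06 and -0.08 in Cre-labelled libraries 1 to 3, against 0.02, 0.14 and 0.10 in GFP-labelled libraries 1 to 3. By root mean square difference over the 6 libraries, the nearest genes were Fto, which encodes an RNA demethylase (0.015), Chp1, which encodes a calcium-binding regulator of sodium-proton exchange (0.0154), and Tagln3, which encodes a neuronal protein of the calponin family (0.0158). Their log2 differences were -0.16, -0.15 and -0.18 (edgeR adjusted p = 0.207, 0.21 and 0.165). The members themselves lay farther from their own mean, at 0.0494 for Scn8a (rank 256 by distance among members and other genes) to 0.224 for Scn4b (rank 9938). The nearest genes were picked as the closest of 14271, so their distances and those of the members are not a test. Cre-labelled library 1 was the lowest of the 6 in this mean, and the GFP-labelled libraries were above all Cre-labelled ones.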

How the data were processed

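Poly(A) RNA was sequenced as read pairs from libraries with dUTP strand marking and molecular identifiers, per the labels' protocols. The submitters' processing notes name cutadapt, HISAT2 and StringTie, without versions, and build mm9. Of 35024 gene identifiers shared with GENCODE M21 on GRCm38, 91.4% had identical coordinates, so positions are given as GRCm38. Whether identifiers or strand were used in counting is not given in the sources used here.

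The deposited table holds raw counts per gene, as the authors deposited them, and FPKM values that the authors scaled by gene length and library total. From the counts, edgeR 4.0.16 (R 4.3.3; TMM, filterByExpr with a minimum count of 10, quasi-likelihood test, Benjamini-Hochberg over 20865 genes, threshold 0.05, two-sided) compared 3 Cre-labelled with 3 GFP-labelled libraries without covariates. The common biological coefficient of variation was 27.1%. Members had 1472 to 18671 counts in a library, except Scn4b with 284 to 517, for which counting error is not small beside the spread between libraries. Chi-square per gene was 11.4 or more for every pair of libraries, so none was counted as a repeat. Shares and sums of FPKM were compared by two-sided exact permutation, adjusted over 15 tests. Profiles used log2 CPM with a prior count of 2. The fit was tested on simulated data.

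The alternatives were DESeq2 1.42.0, relative log expression factors, library factors from the pan-neuronal markers, no filter, a robust fit, a replicate block, limma 3.58.1 on log2(FPKM + 0.5), with 0.1 and 1 as other pseudocounts, for genes averaging 1 FPKM or more, each library left out, and the 3 libraries with kidney, muscle or testis transcripts left out. The members and lists were chosen with earlier results of these data known. Named were all members, Ruvbl2, the 2 partner genes of each list with the smallest p, and the 3 nearest profiles. One gene that this rule takes is not reported here.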

Additional observations from a re-analysis of the deposited data

How the results depend on the processing

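Over 16 alternatives for each of the 9 members, 127 of 144 log2 differences kept their direction and their side of the threshold, 7 passed it in the same direction and 10 turned round. DESeq2 called 3 members and the fit without the 3 libraries with kidney, muscle or testis transcripts called 4, while 0 were called in each fit without 1 library. Scaled to the pan-neuronal markers, the log2 differences turned to 0.0832 (Scn1a), 0.0463 (Scn2a), 0.19 (Scn3a), 0.10 (Scn8a), 0.10 (Scn9a), 0.0056 (Scn2b), 0.0947 (Scn3b) and 0.17 (Nalcn), with a median over the members of 0.10. That scaling moved the median of all genes to 0.31. Scn4b turned to -0.0013 without Cre-labelled library 3 and to -0.0524 without those 3 libraries, and reached 0.259 without Cre-labelled library 1. The members' median was -0.16 by limma with a pseudocount of 1 and ran from -0.27 (without GFP-labelled library 1) to -0.17 with 1 library left out. Ruvbl2 was 0.39 with pan-neuronal scaling (edgeR adjusted p = 0.0475), where the all-gene median was 0.31 and 5795 of 20865 genes were called higher. With 1 library left out under TMM, Ruvbl2 ran from -0.0288 (without GFP-labelled library 2) to 0.18.

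Of the partner genes, DESeq2 called 8, pan-neuronal scaling 11 (10 higher and 1, Map1b, lower), and fits without 1 library 0 to 2. Over all genes tested, pan-neuronal scaling called 5795 of 20865 higher and 28 lower, and DESeq2 called 4.91% lower. With 1 library left out, the difference in share of summed alpha FPKM, in percentage points, ran from -1.47 to 0.98 for Scn1a, -2.06 to 0.36 for Scn2a, 0.518 to 1.16 for Scn3a, -0.22 to 0.70 for Scn8a and -0.15 to 0.48 for Scn9a. Raw counts kept each direction. Same-numbered libraries of the 2 groups did not deviate together over all tested genes (correlations -0.0435, 0.0121 and -0.0216), so no pairing was seen. Since RNA of other organs also differed between single libraries, these correlations cannot exclude a pairing. With the replicate block edgeR called 0 members and 3 of all genes, and the members' median was -0.21. The cause of these changes was not tested. Scn4b, with 284 to 517 counts per library, is the member whose depth is lowest.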
